A study of Homo sapiens with 4 samples.

Results

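The genes described here are 51 human genes of the extracellular matrix. They encode collagens, laminins, other glycoproteins and proteoglycans of the matrix, elastic fibre proteins, and enzymes that modify collagen. They were taken by symbol from the 60725 rows of the count table. Of these 51 genes, 41 had at least 10 counts in at least 2 of the 4 libraries and entered the comparison, which covered 15356 genes. The other 10 were COL1A2, COL3A1, COL6A2, ELN, FBLN1, MFAP2, MFAP5, DCN, LUM and LOXL4, none of which exceeded 7 counts in a library. LOXL4 lay just below the limit, with 7 and 5 counts in the control libraries and 7 and 5 after knockdown. COL5A1, with 8 and 9 control counts and 11 and 17 after knockdown, lay just above it and passed only through the knockdown libraries, as did POSTN.

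RNA was sequenced from RPE1 SunTag cells, a human retinal pigment epithelium line immortalized with telomerase. In 2 control libraries the cells had received a non-targeting siRNA (Silencer Select Negative Control), and in 2 knockdown libraries a pool of siRNAs against TOP2B (ON-TARGETplus SMARTpool). TOP2B is topoisomerase II beta, which passes one DNA double strand through another and is present in non-dividing cells too. Both groups received 10 nM siRNA, were transfected again after 48 h and were collected 72 h later, on day 5. The 2 siRNAs differ in supplier and chemistry, so an effect of TOP2B loss and an effect of the siRNA cannot be told apart. The question put to these libraries was how RNA levels differ when TOP2B is depleted.

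Matrix proteins are secreted and assembled outside the cell. Fibrillar collagens form the fibres of connective tissue, whereas basement membranes are sheets in which a laminin network and a type IV collagen network are bridged by nidogens and by the proteoglycans perlecan and agrin. In the eye, the retinal pigment epithelium rests on such a sheet, the inner layer of Bruch's membrane, and cultured epithelium of this kind lays down a matrix of its own.

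TOP2B itself had 3709 and 3272 counts in the control libraries and 324 and 268 after knockdown (log2 fold change -3.38, SE 0.14, adjusted p = 5.1e-06, edgeR). Library totals ranged from 20310259 to 23887013 counts, and levels are given as CPM, read counts scaled to a common library size, where 1 CPM stood for 20.2 to 23.9 reads. Of the pigment epithelium markers checked, MITF and OTX2 were present, at 38.3 and 11.6 CPM in control cells, whereas RPE65, TYR and TTR had 0 counts in every library. The summed level of 11 pigment epithelium markers, mostly KRT8 and KRT18, was 1510 and 1820 CPM in controls and 1180 and 1460 CPM after knockdown. That of 4 endothelial markers, mostly TIE1, was 25.3 and 18.4 CPM and then 17.2 and 14.0 CPM, that of 4 muscle markers 0.835 and 1.27 CPM and then 2.5 and 2.38 CPM, and that of 4 leukocyte markers at most 0.627 CPM. edgeR called 0 of the 12 markers tested, 6 passed an unadjusted p of 0.05 and DESeq2 called 0, and the part of these markers in the results was not tested.

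Among the 41 matrix genes, 8 rose after TOP2B knockdown and 7 fell, counting those with an adjusted p below 0.05. The genes that rose were FN1, FBN2, VCAN, NID2, AGRN, COL4A1, HSPG2 and POSTN. Those that fell were BGN, LAMA5, LAMB3, TNC, LOX, SPARC and COL8A1. POSTN, like COL5A1, entered the comparison only through the knockdown libraries, so its call is a description, and 7 of the other 39 genes rose and 7 fell. The shares over all 41 were 19.5% higher and 17.1% lower, against 6.66% and 4.18% of all genes tested, and 10.8% of all genes in either direction. Over the 39 genes both shares were 17.9%. The genes were chosen with earlier results of these data known, and the part of that choice in these shares was not tested. The median level of the matrix genes was 131 CPM, against 20.8 CPM over all genes tested, and the part of level in these shares was not tested. The 2 knockdown libraries both lay above or both below the 2 control libraries for 31 of the 41 genes, or 75.6%, against 54.3% of all genes. The median log2 difference over the 41 genes was 0.12, against -0.003 over all genes, with 26 differences above 0 and 15 below. POSTN and COL5A1 are counted among the 31 and among the 26. Differences were mostly moderate: POSTN aside, FN1, FBN2, BGN and LAMA5 were the 4 called genes that moved by more than 2-fold. In bulk RNA, a lower level may come from fewer cells that express a gene or from less RNA per cell, and these cannot be told apart.

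**Figure D1:**
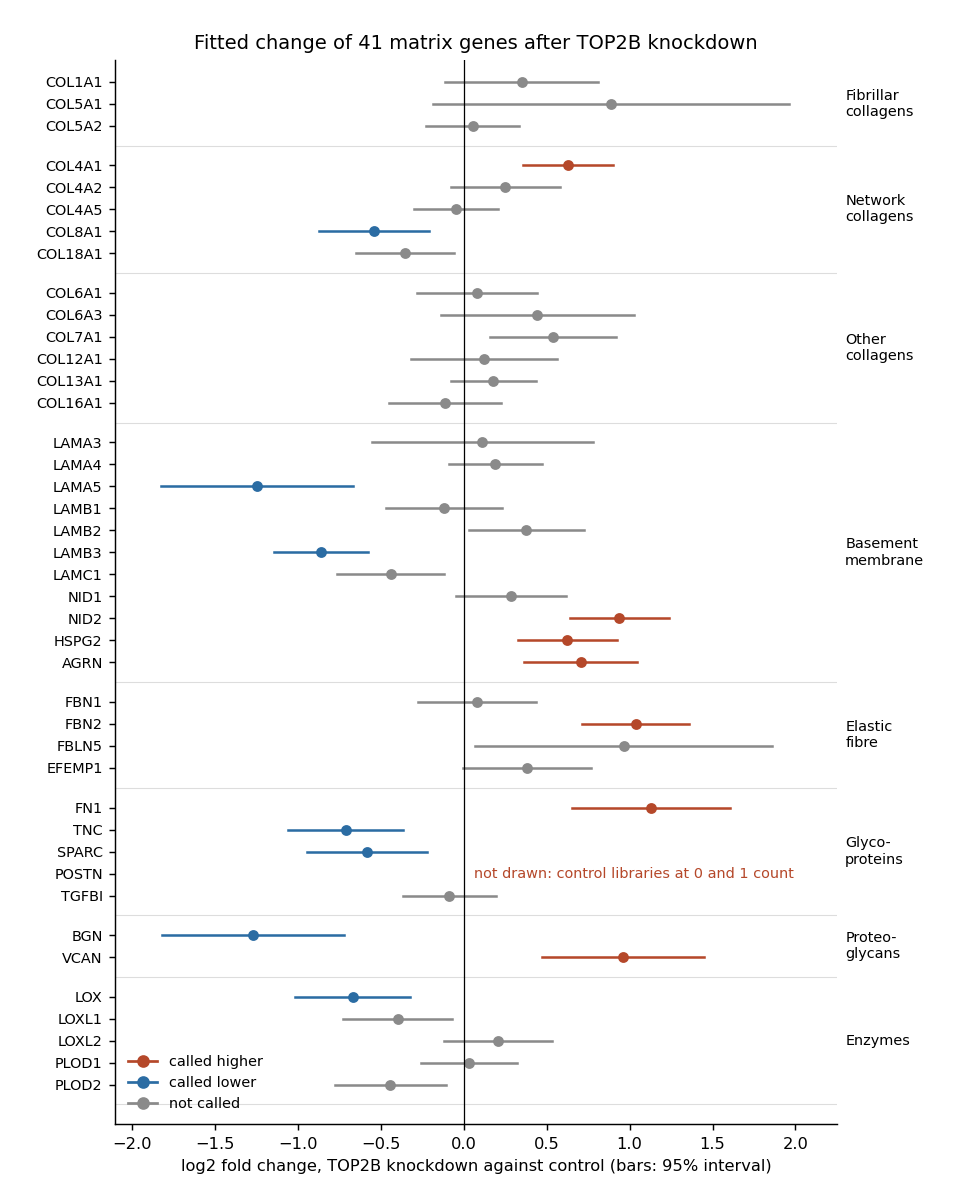
Fitted log2 fold change of the 41 tested matrix genes after TOP2B knockdown against control, with 95% intervals, grouped by role, red for genes called higher, blue for genes called lower and grey for the others. Calls in both directions appear in the basement membrane, network collagen, glycoprotein and proteoglycan groups, while none of the 3 tested genes of the fibrillar collagen group was called.

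Matrix genes also differed between the libraries of a group. In both groups the library numbered 1 had the higher level for 36 of the 41 genes, or 87.8%, which held for 38.9% of all genes tested. The matrix genes together took 1.16% and 0.959% of the control libraries and 1.33% and 1.11% of the knockdown libraries. With 2 libraries a group, each call was repeated without each library in turn, the lone library then being assumed to vary like the other group. With POSTN set aside, NID2, FBN2, BGN, LAMA5 and LAMB3 were called in every such fit. Each of the other called matrix genes lost its call in at least 1 fit. How often this held over all called genes was not counted.

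The basement membrane proteins other than collagen gave 3 genes that rose and 2 that fell among 11 tested. Together these were 45.5%, against 10.8% of all genes tested. NID2 encodes nidogen 2, one of the proteins that join laminin to type IV collagen. Its level was 84.9 and 70.8 CPM in controls and 156 and 142 CPM after knockdown, so that both knockdown libraries stood well above both controls. The log2 fold change was 0.94 (SE 0.13, adjusted p = 0.00281, edgeR). NID1, its closest relative, was at 99.6 and 78.3 CPM in controls and 118 and 99.4 CPM after knockdown, a difference that was not called (log2 0.29, 95% interval -0.04 to 0.62). Annotated exons of NID2 share 30.7% of their length with RTRAF on the same chromosome, and whether strand was used in counting was not stated. RTRAF was at 98.5 and 108 CPM in controls and 90.3 and 105 CPM after knockdown (log2 -0.08, adjusted p = 0.747).

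The 2 listed basement membrane proteoglycans other than collagens, AGRN and HSPG2, carry heparan sulphate chains, and both rose. AGRN encodes agrin, which also organizes the neuromuscular junction, and its level was 409 and 341 CPM in controls and 640.3 and 583 CPM after knockdown (log2 fold change 0.71, SE 0.15, adjusted p = 0.0177, edgeR). HSPG2 encodes perlecan, and it rose from 109 and 96.5 CPM to 171 and 146 CPM (log2 fold change 0.62, SE 0.13, adjusted p = 0.0173). The groups did not overlap for either gene, and 11.7% of the HSPG2 exon length is shared with LDLRAD2. Neither call held without control replicate 2 (adjusted p = 0.162 for AGRN and 0.0984 for HSPG2) or without knockdown replicate 1 (0.0952 and 0.0978).

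Laminins are trimers of an alpha, a beta and a gamma chain, and the 7 chains listed did not move together. LAMB3, a beta chain of the laminin that anchors epithelia at hemidesmosomes, was at 69.5 and 70.9 CPM in controls and 35.3 and 41.9 CPM after knockdown. It fell by 0.86 on the log2 scale (SE 0.13, adjusted p = 0.00321, edgeR). LAMA5, an alpha chain common to adult basement membranes, was at 11.4 and 7.33 CPM in controls and 4.62 and 3.27 CPM after knockdown, and its fall was among the larger (log2 fold change -1.25, SE 0.26, adjusted p = 0.0149). The most abundant chains were LAMB1 and LAMC1, which combine with several alpha chains into widespread laminins. LAMC1 was at 516 and 458 CPM in controls and 381 and 337 CPM after knockdown, without a call (log2 -0.44, adjusted p = 0.0842). By DESeq2 it was called lower, with an adjusted p of 0.0138. LAMB1 was at 565 and 466 CPM in controls and 506 and 442 CPM after knockdown, overlapping ranges. LAMB2 was at 218 and 166 CPM and then 260.4 and 238 CPM, with a log2 difference of 0.38 that was not called (adjusted p = 0.153). LAMA4, at 121 and 107 CPM in controls and 135 and 125 CPM after knockdown, was not called (log2 0.19, 95% interval -0.09 to 0.47). Neither was the scarce LAMA3, at 2.63 and 2.76 CPM and then 3.73 and 2.08 CPM (0.11, -0.55 to 0.78).

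Type IV collagen is the collagen of basement membranes, and its chains are encoded in head-to-head pairs. COL4A1 was at 147 and 139.7 CPM in controls and 225 and 219 CPM after knockdown, with close replicates in both groups (log2 fold change 0.63, SE 0.12, adjusted p = 0.0116, edgeR). Without control replicate 2 the adjusted p was 0.0783. COL4A2, which supplies the other chain of the common type IV trimer, was at 444 and 382 CPM in controls and 516 and 466 CPM after knockdown. The knockdown libraries again stood above the controls, but the log2 difference of 0.25 (95% interval -0.08 to 0.58) was not called. COL4A5 was at 90.6 and 87.2 CPM in controls and 87.3 and 84.9 CPM after knockdown, which overlapped.

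COL4A1 and COL4A2 lie back to back on chromosome 13, and their spans in GENCODE v44 overlap by a short stretch. The RefSeq starts given next lie apart, without such an overlap. In RefSeq (GRCh38.p14) COL4A1 starts at base 110307157 on the minus strand and COL4A2 at base 110307284 on the plus strand, so 1 window holds both starts. It is printed because this stretch lies between a gene that was called and a gene that was not, although the difference between their changes was not tested. The window is chr13:110307108-110307407, 300 bases, on the strand of COL4A1, with capitals for GGGCGG and CCAAT or their reverse complements CCGCCC and ATTGG.
COL4A1 promoter: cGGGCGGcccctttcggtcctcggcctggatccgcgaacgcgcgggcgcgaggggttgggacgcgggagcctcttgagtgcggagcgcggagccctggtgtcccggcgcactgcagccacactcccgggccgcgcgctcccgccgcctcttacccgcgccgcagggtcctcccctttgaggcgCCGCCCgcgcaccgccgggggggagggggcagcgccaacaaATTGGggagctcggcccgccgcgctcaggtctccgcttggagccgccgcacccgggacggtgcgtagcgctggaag
GGGCGG, read on either strand, occurs 2 times here, and CCAAT once. The first was found in 35 of the 46 matrix promoters in the RefSeq table, or 76.1%, against 45.0% of all 35116 promoters of this length. CCAAT was found in 12 of the 46, or 26.1%, against 34.6%. These are matches of letters only, and the motifs do not overlap each other. The background was not limited to genes tested here, and the differences in these shares were not tested.

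Of the remaining network collagens listed here, 1 was called. COL8A1, a short-chain network collagen found in the membrane beneath corneal endothelium and in Bruch's membrane, was the most abundant collagen gene by CPM in control cells, at 760.4 and 652 CPM. After knockdown it was at 497 and 474 CPM, lower in both libraries than in either control (log2 fold change -0.54, SE 0.15, adjusted p = 0.0468, edgeR). This call was lost without any 1 library, with adjusted p from 0.083 without control replicate 2 to 0.305 without control replicate 1, and it was lost under a filter on a mean of at least 100 counts (0.0538). COL18A1, the source of endostatin, was at 47.4 and 39.2 CPM in controls and 34.5 and 33.3 CPM after knockdown, without a call (log2 -0.35, adjusted p = 0.121). It shares 18.5% of its exon length with SLC19A1. DESeq2 called COL8A1 lower, with an adjusted p of 0.00126, and did not call COL18A1 (0.158).

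The genes of the fibrillar collagen group were sparse in these cells apart from COL5A2. That gene, a chain of the collagen that starts fibrils, was at 75.9 and 64.0 CPM in controls and 73.2 and 72.2 CPM after knockdown (log2 0.06, 95% interval -0.22 to 0.34). COL1A1, the major chain of bone and skin collagen, was at 6.22 and 4.65 CPM and then 7.41 and 6.45 CPM (log2 0.35, -0.11 to 0.81). Its partner COL1A2 had 0 counts in both control libraries and 2 and 1 after knockdown, so the 2 chains of type I collagen were not both present. COL3A1 had at most 6 counts. edgeR called none of the 3 tested genes of the fibrillar collagen group, none passed an unadjusted p of 0.05, and DESeq2 called 0. This does not hold for every fibrillar collagen tested. COL27A1, placed among the other collagens and described below, was called higher by edgeR (log2 fold change 1.37, adjusted p = 0.000707). DESeq2 called it higher too (adjusted p = 9.4e-10).

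Among the 6 tested collagens of microfibrils, anchoring fibrils, fibril surfaces and cell membranes, edgeR called none, 1 passed an unadjusted p of 0.05 and DESeq2 called 0. The 1 was COL7A1, which forms the anchoring fibrils beneath epithelia. It was at 37.7 and 26.8 CPM in controls and 50.9 and 42.8 CPM after knockdown (log2 0.54, 95% interval 0.16 to 0.92, adjusted p = 0.0719). COL12A1, on the surface of fibrils, was the most abundant of the group, at 429 and 340.0 CPM and then 498 and 339 CPM. COL6A1 was at 99.3 and 73.6 CPM in controls and 100.1 and 82.6 CPM after knockdown, while its partner COL6A2 had at most 6 counts. COL6A3, the third chain, was at 3.17 and 2.11 CPM in controls and 3.78 and 3.42 CPM after knockdown (log2 0.44, 95% interval -0.14 to 1.03). The range of COL13A1 was 70.1 to 82.0 CPM and that of COL16A1 10.6 to 11.9 CPM over the 4 libraries.

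Elastic fibres consist of an elastin core on fibrillin microfibrils, and elastin itself (ELN) had at most 4 counts. FBN2 encodes fibrillin 2, the form that predominates in development. Its level was 106 and 105 CPM in controls and 243 and 189.7 CPM after knockdown, about double in each library (log2 fold change 1.04, SE 0.14, adjusted p = 0.00264, edgeR). FBN1, the main fibrillin of adult tissue and the gene of Marfan syndrome, was at 519 and 461 CPM in controls and 576 and 459 CPM after knockdown, ranges that overlapped (log2 0.08, 95% interval -0.28 to 0.43). FBLN5, a fibulin that guides elastin assembly, had only 33 and 15 counts in controls and 52 and 31 after knockdown (log2 0.96, 95% interval 0.07 to 1.86, adjusted p = 0.158). EFEMP1, fibulin 3, whose variants cause a drusen dystrophy of Bruch's membrane, was at 173 and 122 CPM and then 208 and 177 CPM, without a call (log2 0.38, adjusted p = 0.193).

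Fibronectin changed most in absolute terms. FN1, whose product binds integrins and collagen and is laid down first in a new matrix, was at 1915 and 1433 CPM in controls and 4166 and 3146 CPM after knockdown. Its log2 fold change was 1.13 (SE 0.21, adjusted p = 0.0103, edgeR), with a mean of 1674 ± 341 CPM in controls and 3656 ± 721 CPM after knockdown (SD, n = 2). It made up 16.5% and 14.9% of all matrix gene counts in the controls and 31.4% and 28.1% after knockdown. Without FN1 the matrix genes took 0.972% and 0.816% of the control libraries and 0.915% and 0.798% of the knockdown libraries, which overlap. The FN1 call lay at the threshold without control replicate 2 (adjusted p = 0.0501) and without knockdown replicate 1 (0.054), with log2 fold changes of 0.93 and 0.92.

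SPARC and TNC, matricellular proteins that modulate how cells attach to the matrix, moved the other way. SPARC, which binds collagen, was at 1629 and 1391 CPM in controls and 1051 and 967 CPM after knockdown (log2 fold change -0.58, SE 0.16, adjusted p = 0.0485, edgeR). SPARC was lost from the calls without any 1 library, with log2 fold changes from -0.69 to -0.46. The edgeR call was also lost with library sizes left unnormalized (adjusted p = 0.0509) and under a filter on a mean of at least 100 counts (0.056). DESeq2 called SPARC lower, with an adjusted p of 0.000434. TNC, tenascin C, was at 112 and 88.8 CPM in controls and 68.4 and 54.5 CPM after knockdown (log2 fold change -0.71, SE 0.16, adjusted p = 0.019). Its adjusted p was 0.051 without control replicate 1 and 0.0513 without knockdown replicate 2. TGFBI, a secreted protein named for its induction by TGF-beta, was at 168 and 147 CPM in controls and 147 and 149.5 CPM after knockdown.

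POSTN, periostin, was close to absent in control cells, with 1 and 0 counts, and had 32 and 14 counts after knockdown. Since it passed the count filter only through the knockdown libraries, these values are given as a description, without a p. The controls lay under the limit of 3 counts per library, so the fold is a bound: the knockdown mean of 1.10 CPM was at least 8.58-fold higher than the mean limit of 0.128 CPM, and the lower knockdown library alone gave a bound of 5.27-fold. Even so, its level after knockdown was among the lowest of the 41 genes.

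The interstitial proteoglycans split. VCAN, versican, a large chondroitin sulphate proteoglycan that binds hyaluronan, was at 218 and 140.4 CPM in controls and 404 and 293 CPM after knockdown (log2 fold change 0.96, SE 0.22, adjusted p = 0.0226, edgeR). It missed the threshold without control replicate 2 (0.0519). BGN, biglycan, a small leucine-rich proteoglycan, was at 10.2 and 7.72 CPM in controls and 4.53 and 2.88 CPM after knockdown, 0.415 of the control level (log2 fold change -1.27, SE 0.25, adjusted p = 0.0111). DCN and LUM, its relatives decorin and lumican, had at most 2 counts.

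Of the 5 tested crosslinking and hydroxylating enzymes 1 was called, or 20%, against 10.8% of all genes tested. LOX, lysyl oxidase, which starts the crosslinks of collagen and elastin, was at 868 and 726 CPM in controls and 529 and 473 CPM after knockdown (log2 fold change -0.67, SE 0.16, adjusted p = 0.0244, edgeR). The call was lost without control replicate 1 (0.163), knockdown replicate 1 (0.0821) or knockdown replicate 2 (0.183). LOXL1 was at 239.7 and 205 CPM and then 186 and 152 CPM, without a call (log2 -0.40, adjusted p = 0.116), and 9.21% of its exon length is shared with LOXL1-AS1. LOXL2 was at 467 and 402 CPM in controls and 519 and 483 CPM after knockdown (log2 0.21, 95% interval -0.12 to 0.53). PLOD2, the lysyl hydroxylase of collagen telopeptides, was at 530.2 and 433 CPM in controls and 365 and 345 CPM after knockdown, with no edgeR call (log2 -0.44, adjusted p = 0.0924) but a DESeq2 call (0.0187). PLOD1, which acts on the collagen helix, was at 226 and 200.1 CPM and then 219 and 217 CPM (log2 0.03, 95% interval -0.26 to 0.32).

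**Figure D2:**
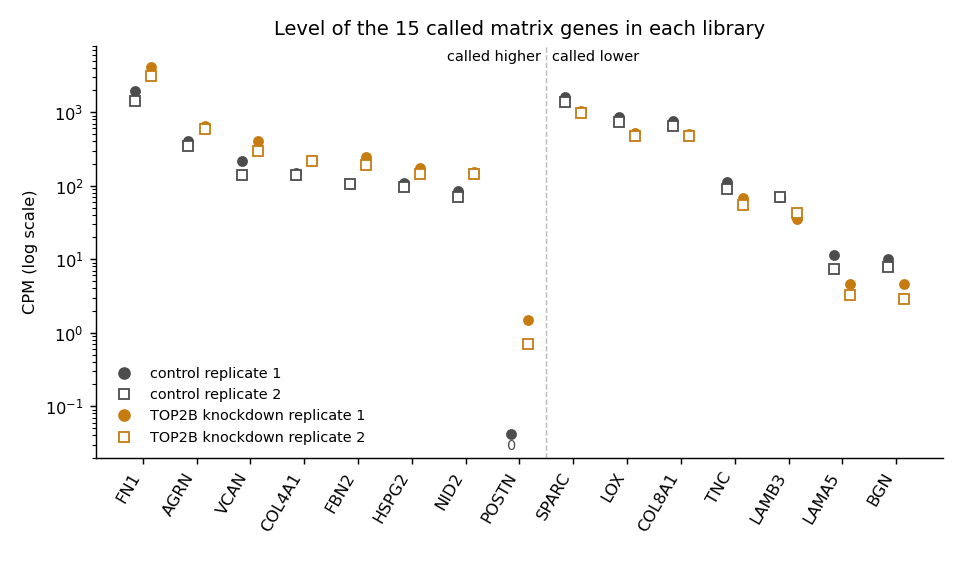
Level of the 15 called matrix genes in each of the 4 libraries, in CPM on a log scale, with genes called higher on the left and genes called lower on the right. FN1 and SPARC lie at the top near or above 1000 CPM, and POSTN lies at the bottom with a control library at 0 counts.

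Dividing CPM by transcript length in kilobases (kb, canonical GENCODE transcript) allows levels of different genes to be compared. On that scale SPARC led in control cells at 437.7 ± 48.7 CPM per kb (SD, n = 2), followed by FN1 at 199.5 ± 40.7 and LOX at 157.1 ± 19.8. PLOD2 (128.5 ± 18.3) and COL8A1 (128.0 ± 13.9) came next and differed by less than their spread. After knockdown FN1 led at 435.8 ± 86.0 CPM per kb, and SPARC was next at 292.3 ± 17.3. LOXL2 (134.6 ± 7.0) then stood above LOX (98.7 ± 7.69), the reverse of their order in controls. The summed level of the 17 collagens was 353.2 and 303.8 CPM per kb in controls and 335.2 and 304.3 CPM per kb after knockdown, and that of the 7 laminin chains was 238.6 and 202.7 and then 211.6 and 190.6. Both sums overlapped between the groups.

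Ratios between pairs of listed matrix genes were also formed within each library. The ratio of FBN2 to FBN1, in CPM per kb, was 0.217 and 0.242 in controls and 0.448 and 0.439 after knockdown. The ratio of COL4A1 to COL4A2 was 0.328 and 0.361 and then 0.430 and 0.462. NID2 and NID1 were near parity in controls, at ratios of 1.01 and 1.07, and NID2 led after knockdown at 1.58 and 1.70. Among beta laminins, LAMB3 stood at 0.173 and 0.214 of LAMB1 in controls and at 0.0982 and 0.133 after knockdown, while the ratio of LAMB2 to LAMB1 was 0.383 and 0.353 and then 0.510 and 0.534. LOX stood at 1.36 and 1.32 times LOXL2 in controls and at 0.746 and 0.719 after knockdown. The widest shift was that of FN1 to SPARC, from 0.483 and 0.423 to 1.63 and 1.34. The pairs were picked among genes listed here, most of them relatives and most holding a called gene, and their ratios were not tested. FN1 and SPARC are not relatives, and they were called in opposite directions.

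**Figure D3:**
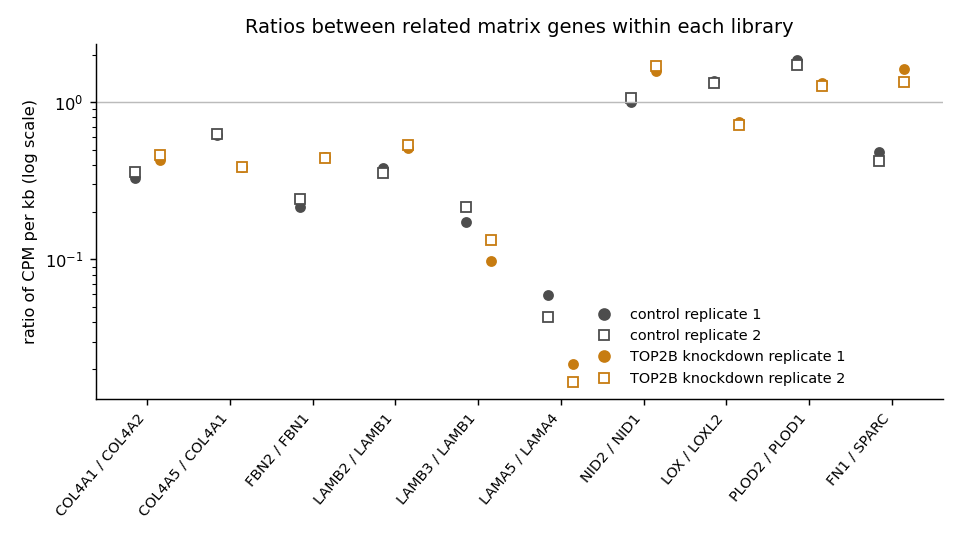
Ratio of CPM per kb between 10 pairs of matrix genes in each library, on a log scale, with control libraries in grey and knockdown libraries in orange. The 2 groups do not overlap for any of the 10 pairs, and the ratios of LOX to LOXL2 and of FN1 to SPARC lie on opposite sides of 1 in the 2 groups. Most pairs hold a gene called in these data, so their separation follows in part from the choice of pairs.

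Many matrix mRNAs share a sequence feature that their choice did not use. The microRNAs of the miR-29 family are known repressors of collagen mRNAs, and they pair through bases 2 to 8 with the word TGGTGCT in 3′ UTRs. These libraries do not measure mature microRNAs, so the following is a description of the genes. The mature sequences from RefSeq (GRCh38.p14), with the seed in capitals, show that the 3 members share it.
hsa-miR-29a-3p: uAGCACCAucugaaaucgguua
hsa-miR-29b-3p: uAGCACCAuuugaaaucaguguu
hsa-miR-29c-3p: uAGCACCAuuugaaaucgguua
TGGTGCT, searched on the transcript strand, occurred in the annotated 3′ UTR of 18 of the 41 tested matrix genes, or 43.9%, against 2050 of 12517 tested genes with a 3′ UTR, or 16.4%. The matrix 3′ UTRs were not longer, with a median of 1106 bases against 1357. Of all 51 genes 24 carried it, including 13 of the 17 collagens and 1 of the 7 laminin chains (LAMC1). COL5A1 had 4 matches, and LOX and ELN had 3 each. Another word, GCAACC, taken from earlier work on these data, occurred in 14.6% of the tested matrix genes and 23.4% of all.

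The matches of the called genes are shown with 9 bases on each side, the word in capitals. COL4A1 and HSPG2 are the called genes with a match that rose, and COL8A1, SPARC and LOX those that fell. In GRCh38 they lie at chr13:110150318-110150342 (COL4A1, minus strand), chr1:21822467-21822491 (HSPG2, minus), chr3:99798751-99798775 (COL8A1, plus), chr5:151661369-151661393 (SPARC, minus) and, for the first match in LOX, chr5:122066244-122066268 (minus).
COL4A1: gtcacaacaTGGTGCTacttcttct
HSPG2: ggatgccgcTGGTGCTcaggaagag
COL8A1: attctacaaTGGTGCTaatctcaga
SPARC: tggcccattTGGTGCTggccatttg
LOX: ggacacatcTGGTGCTgagaaagaa
Genes with a match did not share a direction. The median log2 difference was 0.23 for the 18 genes with the word and 0.11 for those without, and over all genes it was -0.05 with and -0.01 without.

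Matrix genes are long, with a median annotated span of 89.3 kb among the 41 tested, against 28.3 kb over all tested genes with a symbol. The 18 that exceed 100 kb had a median log2 difference of 0.15, and the shorter ones 0.08. The Spearman correlation between span and log2 difference was 0.156 across the 41 genes and -0.027 across 15183 genes. Genes are not independent replicates, and this is given as a description. Long genes were found in both sets of calls: COL4A1, FBN2, HSPG2 and VCAN exceed 100 kb and rose, and COL8A1 does and fell, while BGN, LOX and FN1 are shorter.

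Another 104 genes, none of them among the 51, were listed to show the surroundings of the matrix genes, and 61 of them were tested. They held 12 higher and 4 lower calls, 26.2% together against the 10.8% of all genes. These lists too were chosen with earlier results of these data known, so the share is a description. Genes whose call was lost without 1 library are named below. Of 32 tested genes for collagen synthesis and secretion, 5 rose and 2 fell, or 21.9% together, against 10.8% of all genes. The median log2 difference of the 32 was 0.01. FKBP10, a collagen chaperone of the endoplasmic reticulum, rose from 126 and 94.6 CPM to 275 and 233 CPM (log2 fold change 1.20, adjusted p = 0.00238, edgeR). P3H4, a part of the complex that modifies collagen lysines, starts 75 bases away on the opposite strand of chromosome 17, and it rose too, from 25.3 and 23.5 CPM to 43.1 and 42.0 CPM (0.80, adjusted p = 0.00369). CREB3L2, a transcription factor for secretory genes, was at 141 and 118 CPM and then 293 and 238 CPM (log2 fold change 1.03, adjusted p = 0.00312). P3H1, a prolyl 3-hydroxylase, was at 50.9 and 33.7 CPM in controls and 82.9 and 66.0 CPM after knockdown (0.81, adjusted p = 0.0243). LOXL3, a lysyl oxidase relative, was at 3.42 and 2.5 CPM and then 6.18 and 5.60 CPM (0.99, adjusted p = 0.0225), and it shares 25.5% of its exon length with HTRA2. Without control replicate 2 neither was called (adjusted p = 0.0613 for P3H1 and 0.0814 for LOXL3). P4HA1, a catalytic subunit of the prolyl 4-hydroxylase, fell from 59.0 and 47.2 CPM to 38.2 and 35.1 CPM (-0.53, adjusted p = 0.0378). COLGALT2, a collagen galactosyltransferase, fell from 16.4 and 13.3 CPM to 10.1 and 7.98 CPM (-0.72, adjusted p = 0.0315). Neither fall was called without control replicate 1 (0.243 and 0.101) or knockdown replicate 2 (0.107 and 0.113).

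Among 10 other tested collagens and laminins 2 rose and 1 fell, or 30% together, against 10.8% of all genes. COL4A6 is the head-to-head neighbour of COL4A5 on the X chromosome, 340 bases away, and was at 1.13 and 1.404 CPM in controls and 4.01 and 3.12 CPM after knockdown (log2 fold change 1.49, adjusted p = 0.0101, edgeR). COL4A5 itself was not called, as given above. COL27A1, a fibrillar collagen of cartilage, rose from 9.94 and 10.2 CPM to 27.1 and 24.9 CPM (1.37, adjusted p = 0.000707). COL17A1, the transmembrane collagen of hemidesmosomes, fell from 4.93 and 6.98 CPM to 1.89 and 3.08 CPM (-1.26, adjusted p = 0.0202).

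Of 19 tested genes for other matrix proteins 5 rose and 1 fell, or 31.6% together, against 10.8% of all genes. Those that rose were FMOD (log2 fold change 1.36), FBLN7 (1.11), LTBP4 (1.10), LTBP2 (0.59) and NTN4 (0.53), with adjusted p from 0.00134 for LTBP4 to 0.0381 for NTN4 (edgeR). FBLN7 was at 7.98 and 7.19 CPM in controls and 19.8 and 12.9 CPM after knockdown. LTBP4, whose product holds latent TGF-beta in the matrix, was at 53.6 and 47.1 CPM and then 115 and 101 CPM. LTBP2, a microfibril protein of the same family, was at 23.4 and 20.7 CPM in controls and 31.3 and 35.3 CPM after knockdown. NTN4, a netrin of basement membranes, was at 102 and 83.6 CPM and then 142 and 126 CPM. LTBP2 was not called without control replicate 2 (0.103) or knockdown replicate 2 (0.108), nor NTN4 without control replicate 2 (0.289) or knockdown replicate 1 (0.169). PRELP, a small leucine-rich proteoglycan like BGN, fell from 2.55 and 2.76 CPM to 0.661 and 1.04 CPM (log2 fold change -1.64, adjusted p = 0.0116). FMOD, fibromodulin, of the same family and 124 kb away on chromosome 1, rose from 1.34 and 1.18 CPM to 3.35 and 3.12 CPM.

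**Figure D4:**
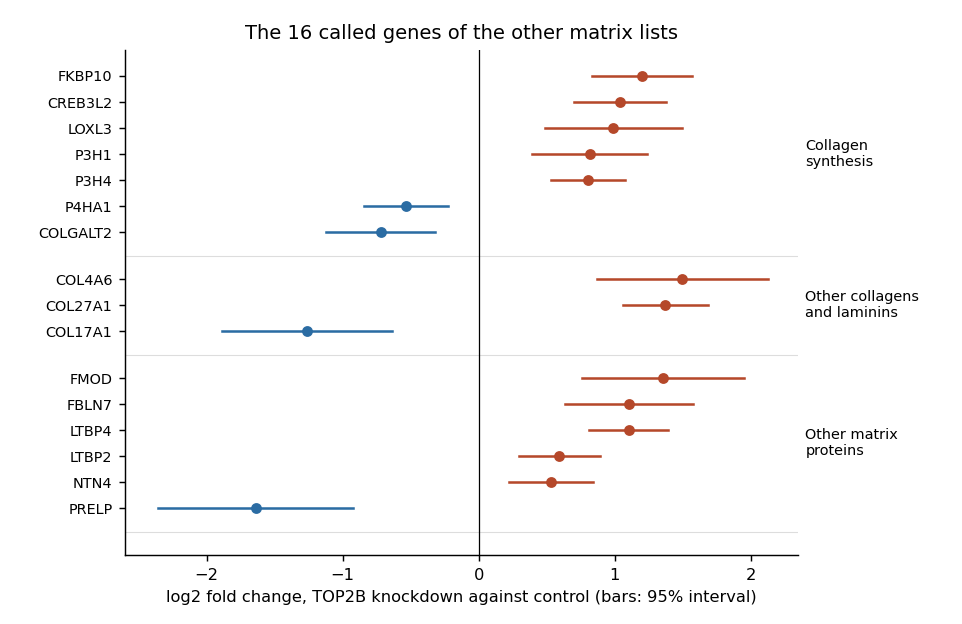
Fitted log2 fold change, with 95% intervals, of the 16 called genes in the 3 other lists of matrix genes, red for higher and blue for lower. Collagen synthesis genes and other matrix proteins hold 5 higher calls each, and the other collagens and laminins hold 2 higher calls and 1 lower call.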

How the data were processed

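The authors aligned single-end reads of 2 control and 2 TOP2B knockdown libraries with STAR 2.5.4a to GRCh38 and deposited raw read counts per Ensembl gene (Gencode v24). FastQC 0.11.6 is also listed by the submitters. The methods call the replicates independent biological ones. Column names mention stranded paired-end counting, so the strand setting is uncertain, and reads from overlapping genes cannot be told apart. The table repeats its columns, and 4 identical copies were not used. Library totals were 20310259 to 23887013 counts.

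Genes that reached 10 counts in 2 or more libraries were tested with edgeR 4.0.16 (TMM normalization, quasi-likelihood F test, Benjamini-Hochberg adjustment over 15356 genes, threshold 0.05) in R 4.3.3. CPM used the normalized library sizes. DESeq2 1.42.0, other scalings and filters, a replicate block and fits without each library were alternatives. Scripts were tested on simulated data. Symbols were found for 98.9% of tested IDs. Spans, 3′ UTRs and exon overlaps came from GENCODE v44, and promoters and microRNAs from RefSeq. Values per library are given for called members, the 3 highest per length, the 3 largest uncalled differences, partner chains, and up to 5 called genes per direction of each other list. One further gene was taken out of the other lists and is not reported here. Members, lists and words were chosen with earlier results of these data known.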

Additional observations from a re-analysis of the deposited data

How the results depend on the processing

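No called gene of the 51 or of the other lists changed direction under the alternatives run, and TOP2B stayed lower at log2 -3.48 to -3.30 without 1 library. With 8 matrix genes called higher and 7 lower, other scalings and filters gave 7 to 10 and 5 to 9. Over all genes these settings gave 825 to 1358 higher and 447 to 985 lower, among 10893 to 29440 genes tested. Without 1 library the calls ranged from 3 to 11 higher and from 3 to 5 lower (3 higher without control replicate 2 and 5 without knockdown replicate 1, 3 lower without control replicate 1 or knockdown replicate 2 and 4 without knockdown replicate 1), and the median log2 difference of the 41 genes from 0.0504 to 0.284, the highest without control replicate 1. In the other matrix lists fewer genes were called higher without control replicate 2 or knockdown replicate 1. Fewer were called lower there without control replicate 1 or knockdown replicate 2. Over all genes, fewer were called higher and fewer were called lower in each fit without 1 library. A filter on a mean of at least 100 counts left 39 of the 61 other genes, of which edgeR called 0 lower, with 3 at an unadjusted p under 0.05, while DESeq2 on all genes called 4. The replicate numbers are shared by the groups but no label says that they mark a batch, and 2 pairs cannot establish it. Differences between replicates correlated at 0.479 over 15356 genes and 0.561 over the 41. With a replicate block, 17 matrix genes were higher and 12 lower, the other lists gave 27 and 9, and all genes 3440 and 3346 in place of 1023 and 642. Leaving out the filter gave 1358 and 985 over all genes. All 15 matrix calls held with the replicate block, and 14 held by DESeq2, which gave POSTN no adjusted p. Depth limits the genes near 1 CPM, such as POSTN, FBLN5 and COL5A1, and 2 libraries a group limit all others.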
